A study of Mus musculus with 6 samples.

Results

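Hepatic RNA of 9 genes of the mevalonate and isoprenoid pathway was followed in mice, from the joining of acetyl-CoA units to squalene. The genes were chosen by name, and all 9 of the 9 listed names (Acat2, Hmgcs1, Mvk, Pmvk, Mvd, Idi1, Fdps, Ggps1 and Fdft1) were found among the 20673 genes of the deposited tables. RNA was sequenced from whole liver of 6 young adult C57BL/6J mice, an inbred laboratory strain, with 1 library per mouse. Of these mice, 3 were fed a regular diet (RD), a standard rodent chow, and 3 were fed a high-cholesterol diet (HCD) for 3 days. HCD differed from RD in more than cholesterol, since it also held cocoa butter as fat and sodium cholate, a bile salt that aids the uptake of cholesterol. The study's methods give both sexes for its mice, and the labels give no sex for a single liver. The comparison of HCD with RD asks how hepatic gene expression changes when the diet supplies cholesterol.

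The mevalonate pathway builds every isoprenoid of the cell from acetyl-CoA. Its early enzymes make mevalonate, its middle enzymes phosphorylate and decarboxylate mevalonate to the 5-carbon isoprene units, and its late prenyl transferases join these units into farnesyl diphosphate. Farnesyl diphosphate is a branch point, from which squalene leads to cholesterol and geranylgeranyl diphosphate leads to prenylated proteins. In liver, genes of this pathway are known targets of SREBP2, a membrane-bound transcription factor that is held in the endoplasmic reticulum when sterols are plentiful.

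With HCD, 8 of the 9 genes were lower, and the largest falls were at the consecutive steps of Mvd, Idi1 and Fdps. Mvd, Idi1 and Fdps fell to 5.26%, 7.79% and 3.89% of their RD mean. Mvk and Pmvk fell to 27.9% and 31.9%, and Acat2, Hmgcs1 and Fdft1, at the start and at the squalene end, to 54.0%, 47.0% and 49.9%. Ggps1, which makes geranylgeranyl diphosphate, was at 104% of its RD mean and did not pass the test. These percentages are of mean CPM, read counts relative to the TMM-scaled size of the library. A gene was called where the quasi-likelihood test of edgeR gave an adjusted p under 0.05. By that rule 8 of 9 genes were called lower and 0 higher, where 1.32% of the 13105 genes tested were called lower and 1.95% higher. In the same 8 genes every HCD liver was below every RD liver, a separation seen for 13.7% of all genes tested in this direction and for 14% in the other. The median log2 fold change of the 9 genes was -1.65, against 0.01 for all genes tested.

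**Figure D1:**
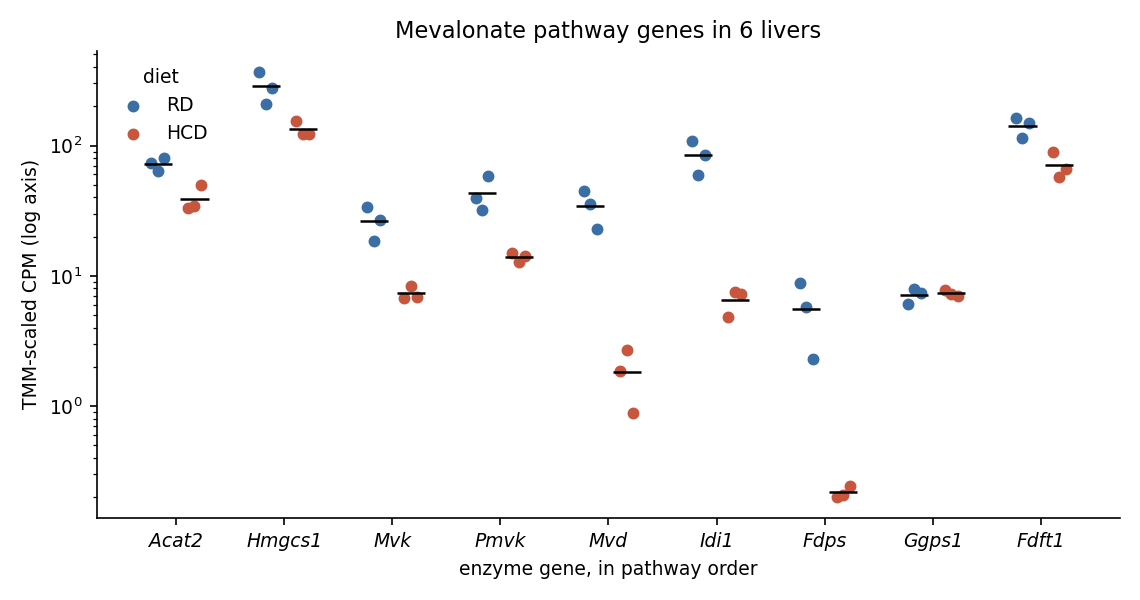
CPM of the 9 genes in each liver, in pathway order, on a log axis, with 3 RD livers (blue) and 3 HCD livers (red) per gene and a black line at each diet's mean. The diets are apart for 8 genes and overlap for Ggps1, and Mvd, Idi1 and Fdps have the widest gaps.

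Depth per library was 13771630 to 23129576 counts (RD) and 13935491 to 18545549 (HCD), so that 3 counts, taken as the floor, stood for 0.13 to 0.218 CPM. The diets did not overlap on the first principal component of all genes, with 42.9% of the variance. Library names follow one pattern with RD and another with HCD, so any difference in handling between the name sets cannot be told apart from diet. HCD replicate 1 had 5032 counts of Xist, the RNA of the inactive X chromosome, against 0 in the other 5 livers. That liver also had 0 counts of the Y-linked gene Ddx3y, where the others had 426 to 1229. Sex-linked RNA thus differed among the HCD livers, and values without that liver are given below. The hepatocyte markers summed to 94405 to 126016 CPM with RD and 102854 to 141716 with HCD. Summed markers of Kupffer cells (90.4 to 162 against 130 to 305 CPM), endothelial cells (82.8 to 146 against 101 to 168), stellate cells (195 to 207 against 200 to 326), cholangiocytes (37.4 to 91.9 against 64.5 to 98.1), leukocytes (36.6 to 55 against 46 to 79.7) and red blood cells (138 to 239 against 177 to 468) also overlapped between diets. Among these markers only Cyp3a11 of hepatocytes and the globin genes Hba-a1 and Hbb-bs were called, all higher with HCD, and the part of these shifts in the results was not tested. In whole tissue, fewer cells of a type and less RNA per cell cannot be told apart.

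The promoter stretches of the 7 genes held in the RefSeq promoter table are shown, 6 of them called lower together and Ggps1 not called. They are the 150 bases before the RefSeq start site on GRCm38.p6, read in the direction of the gene. Capitals mark 3 motifs searched on both strands: TCACNCCAC for the sterol regulatory element that SREBP proteins bind, CCAAT for the factor NF-Y and GGGCGG for the factor Sp1. The stretches lie at chr17:12960726-12960875 on the minus strand for Acat2, chr13:119690201-119690350 on the plus strand for Hmgcs1, chr5:114444119-114444268 on the plus strand for Mvk, chr3:89454391-89454540 on the plus strand for the first of the Pmvk windows, chr8:122443423-122443572 on the minus strand for Mvd, chr13:8885456-8885605 on the plus strand for Idi1 and chr13:14063489-14063638 on the minus strand for Ggps1.
Acat2: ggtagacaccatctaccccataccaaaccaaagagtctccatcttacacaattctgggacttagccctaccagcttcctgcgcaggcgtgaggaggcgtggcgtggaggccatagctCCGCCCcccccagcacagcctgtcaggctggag
Hmgcs1: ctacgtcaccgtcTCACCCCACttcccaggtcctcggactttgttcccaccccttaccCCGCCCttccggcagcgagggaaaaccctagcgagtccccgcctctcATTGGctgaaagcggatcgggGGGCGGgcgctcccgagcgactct
Mvk: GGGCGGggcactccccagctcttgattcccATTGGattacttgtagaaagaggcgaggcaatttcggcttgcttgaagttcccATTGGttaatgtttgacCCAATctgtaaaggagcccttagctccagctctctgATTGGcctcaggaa
Pmvk: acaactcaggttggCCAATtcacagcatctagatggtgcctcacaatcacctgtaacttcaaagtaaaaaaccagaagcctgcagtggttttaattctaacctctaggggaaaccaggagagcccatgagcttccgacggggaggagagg
Mvd: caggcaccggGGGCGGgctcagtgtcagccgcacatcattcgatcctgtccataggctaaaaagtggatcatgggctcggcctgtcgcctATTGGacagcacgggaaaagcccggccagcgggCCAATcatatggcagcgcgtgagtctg
Idi1: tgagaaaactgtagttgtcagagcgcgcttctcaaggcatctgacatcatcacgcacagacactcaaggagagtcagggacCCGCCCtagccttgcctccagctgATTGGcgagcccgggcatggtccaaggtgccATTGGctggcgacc
Ggps1: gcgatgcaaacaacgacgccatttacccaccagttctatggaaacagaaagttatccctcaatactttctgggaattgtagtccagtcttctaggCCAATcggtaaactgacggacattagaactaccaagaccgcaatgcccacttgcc

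The table held all of the 9 genes but Fdps and Fdft1, in 8 windows from 250 bases before to 50 after the start site, since Pmvk has 2 start sites. TCACNCCAC was in 1 of the 7 genes, Hmgcs1, at position -137, and in 1.24% of all 32851 windows of the table. CCAAT was in 6 of the 7 genes, Acat2 being the exception, and in 37.4% of all windows. Windows with 2 or more CCAAT made up 5 of the 8 windows here and 11.7% of all windows. Mvk had 5 and Hmgcs1 4, while Mvd and Idi1 had 2 each. Ggps1, which was not called, had 3. GGGCGG was in 5 of the 7 genes, with 35.7% of all windows, and the genes without it in any window were Pmvk and Ggps1. A match of letters is a description of the window and not a binding site, and a window without a match says only that these letters are not in it.

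The first enzyme, Acat2 (ENSMUSG00000023832, chromosome 17), is the cytosolic thiolase that joins a pair of acetyl-CoA molecules into acetoacetyl-CoA. Its level was 73.5, 63.3 and 80.1 CPM in the RD livers and 33.4, 34.2 and 49.5 in the HCD livers. The diets did not overlap, and HCD replicate 3 was the nearest to RD. Mean CPM went from 72.3 ± 8.46 (SD, n = 3) to 39.0 ± 9.1, a log2 fold change of -0.89 (SE 0.18, edgeR adjusted p = 0.0421). This was the smallest change among the called genes here.

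A neighbouring gene limits the value of Acat2. Acat3, an annotated thiolase gene, matches Acat2 at 97.7% over 1477 bases of transcript, and the counting of reads that match both is not stated. Acat3 was read more often than Acat2, at 145, 135 and 168 CPM with RD and 143, 118 and 203 with HCD, with overlapping diets and a log2 fold change of 0.05 (SE 0.21, edgeR adjusted p = 0.919). When the counts of both genes were added, a choice made after seeing the data, the change was -0.20 (SE 0.20) with an edgeR adjusted p of 0.623, and the call was lost. Acat2 also shares 445 bases at 98.7% with a transcript of Tcp1.

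Hmgcs1 (ENSMUSG00000093930, chromosome 13) encodes the cytosolic HMG-CoA synthase, which adds a further acetyl-CoA. It had 367, 209 and 276 CPM with RD and 155, 123 and 123 with HCD. RD replicate 1 was the highest, and the lowest RD liver was still above every HCD liver. The mean fell from 284 ± 79.0 CPM (SD, n = 3) to 133 ± 18.7, a log2 fold change of -1.09 (SE 0.22, edgeR adjusted p = 0.038).

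Mvk (ENSMUSG00000041939, chromosome 5) encodes mevalonate kinase, the first of the kinases that act on mevalonate. Its levels were 33.7, 18.6 and 26.7 CPM with RD and 6.77, 8.34 and 6.89 with HCD. The lowest RD liver, replicate 2, was above the highest HCD liver, which was also a replicate 2. The means were 26.3 ± 7.6 and 7.33 ± 0.874 CPM (SD, n = 3), a log2 fold change of -1.85 (SE 0.24, edgeR adjusted p = 0.0112). Mvk thus stood 3.59-fold higher with RD.

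Pmvk (ENSMUSG00000027952, chromosome 3) encodes phosphomevalonate kinase, which adds the next phosphate. It was at 39.8, 32.1 and 58.7 CPM with RD and at 14.9, 12.7 and 14.1 with HCD. RD replicate 3 was the highest liver, unlike for Mvk, and the HCD livers lay close together. The means of 43.5 ± 13.7 and 13.9 ± 1.13 CPM (SD, n = 3) gave a log2 fold change of -1.65 (SE 0.23, edgeR adjusted p = 0.013).

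Mvd (ENSMUSG00000006517, chromosome 8) encodes mevalonate diphosphate decarboxylase, which releases carbon dioxide to give isopentenyl diphosphate. Its levels were 45, 35.9 and 22.8 CPM with RD and 1.87, 2.69 and 0.892 with HCD. Every HCD liver was far below the lowest RD liver, replicate 3, and the raw counts with HCD were 37, 39 and 11. The means were 34.6 ± 11.2 and 1.82 ± 0.9 CPM (SD, n = 3), a 19.0-fold difference and a log2 fold change of -4.22 (SE 0.39, edgeR adjusted p = 0.00295). Among the 173 genes called lower, Mvd ranked 11 by the size of the fall.

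Idi1 (ENSMUSG00000058258, chromosome 13) encodes the isomerase that turns isopentenyl diphosphate into dimethylallyl diphosphate, the starter of isoprenoid chains. It was at 108, 59.6 and 85.3 CPM with RD and at 4.8, 7.58 and 7.29 with HCD. The gap between the lowest RD and the highest HCD liver was wide, and HCD replicate 1 was the lowest. The means of 84.2 ± 24.1 and 6.56 ± 1.53 CPM (SD, n = 3) differed 12.8-fold, with a log2 fold change of -3.69 (SE 0.27, edgeR adjusted p = 0.00129), the lowest p of the 9 genes. The processed pseudogene Gm13502, which matches Idi1 at 100% over 684 bases, had 39, 17 and 23 counts with RD and 15, 6 and 1 with HCD. Adding the counts of such copies to Idi1 gave a log2 fold change of -3.56 (edgeR adjusted p = 0.00111). Idi2, the other isomerase gene, is not listed in the tables used here.

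Fdps (ENSMUSG00000059743, chromosome 3) encodes farnesyl diphosphate synthase, which joins the isoprene units into geranyl and then farnesyl diphosphate. Its levels were 8.75, 5.72 and 2.3 CPM with RD and 0.202, 0.207 and 0.243 with HCD. In raw counts these were 182, 82 and 53 with RD and 4, 3 and 3 with HCD, so the HCD livers were at or next to the floor of 3 counts. The fitted log2 fold change was -4.65 (SE 0.63, edgeR adjusted p = 0.013), the largest fall and the largest SE of the 9 genes. Per total count of each diet, 317 counts with RD and 10 with HCD gave a ratio of 26.3 with an exact 95% interval of 14.1 to 55.3, which covers counting error only. The RD livers differed 3.80-fold from highest to lowest, the widest spread of the 9 genes with RD as listed.

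The low level of Fdps needs its near-copies beside it. The processed pseudogene Gm3571 matches Fdps at 98.9% over 1062 bases and was listed with more counts than Fdps itself, 505, 253 and 603 with RD and 37, 27 and 43 with HCD. Gm3571 thus went from 22.7 ± 4.48 CPM (SD, n = 3) to 2.41 ± 0.935, a log2 fold change of -3.26 (SE 0.30, edgeR adjusted p = 0.00295). Gm5873, at 96.7% identity, had 53, 26 and 118 counts with RD and 3, 9 and 0 with HCD. Annotation also places an overlapping coding gene model, Gm43738, on 1124 exon bases of Fdps on the same strand, 26.7% of its exon length, and Gm43738 has no row in the tables used here. Which of these features took reads of the Fdps transcript was not tested. With the copies added to Fdps, a choice made after seeing the data, the log2 fold change was -3.47 (SE 0.24, edgeR adjusted p = 0.00104). The RD livers then had 35.6, 25.2 and 33.6 CPM and the HCD livers 2.22, 2.69 and 3.73, so that the RD spread was 1.41-fold and RD replicate 3 was no longer the lowest. The fall thus stood with and without the copies, while the level of Fdps, its spread among RD livers and its rank among the 9 genes rest on the features counted.

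**Figure D2:**
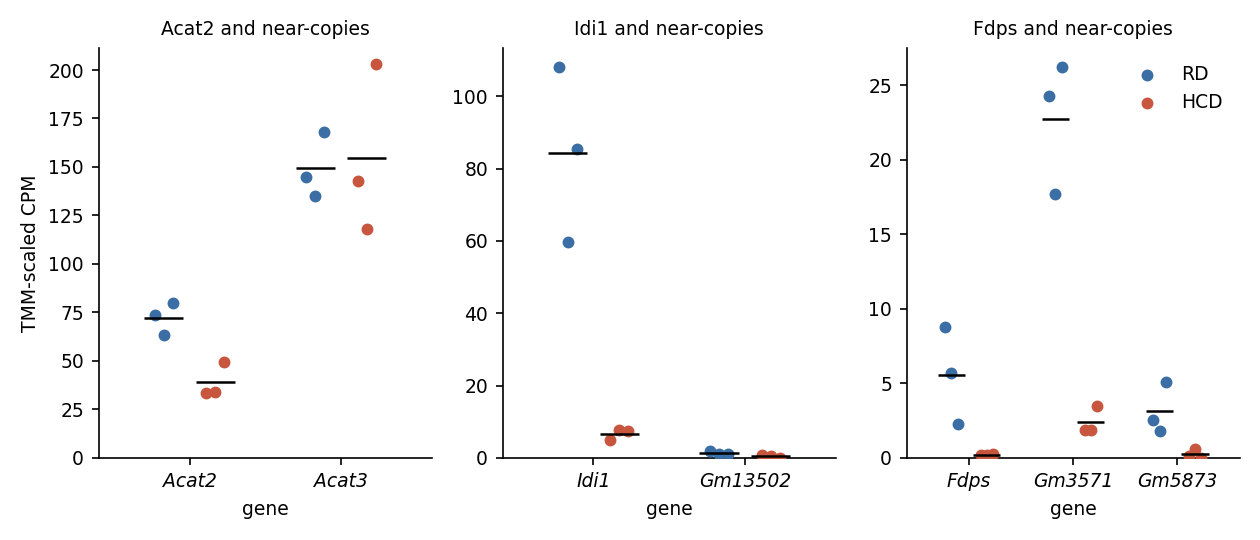
CPM per liver of Acat2, Idi1 and Fdps and of genes or pseudogenes that match them nearly base for base, with RD livers in blue, HCD livers in red and a black line at each mean; each panel has its own axis from 0. Acat3 exceeds Acat2 with overlapping diets, and Gm3571 exceeds Fdps and is lower with HCD as Fdps is.

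Ggps1 (ENSMUSG00000021302, chromosome 13) encodes geranylgeranyl diphosphate synthase, which adds an isoprene unit to farnesyl diphosphate. Its level was 6.06, 7.95 and 7.42 CPM with RD and 7.83, 7.31 and 7.05 with HCD. The diets overlapped, and the lowest and the highest liver were both fed RD. The means were 7.14 ± 0.979 and 7.4 ± 0.399 CPM (SD, n = 3), with a log2 fold change of 0.05 (SE 0.22, edgeR adjusted p = 0.913) and an exact permutation p of 0.9. Its sign was not stable, as the value was -0.00 with library sizes alone and -0.06 without RD replicate 1.

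Fdft1 (ENSMUSG00000021273, chromosome 14) encodes squalene synthase, which joins a pair of farnesyl diphosphates into squalene and so commits them to sterols. It had 162, 114 and 149 CPM with RD and 88.7, 57.1 and 65.9 with HCD. The diets did not overlap, and HCD replicate 1 was the nearest to RD. The mean fell from 141 ± 24.7 to 70.5 ± 16.3 CPM (SD, n = 3), a log2 fold change of -1.0 (SE 0.2, edgeR adjusted p = 0.038). Exons of Ctsb, a cathepsin gene on the opposite strand, overlap 774 exon bases of Fdft1, 18.3% of its exon length, and the use of strand in counting is not stated. Ctsb went from 609 ± 104 to 826 ± 33.4 CPM (SD, n = 3), a log2 fold change of 0.44 (edgeR adjusted p = 0.189).

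**Figure D3:**
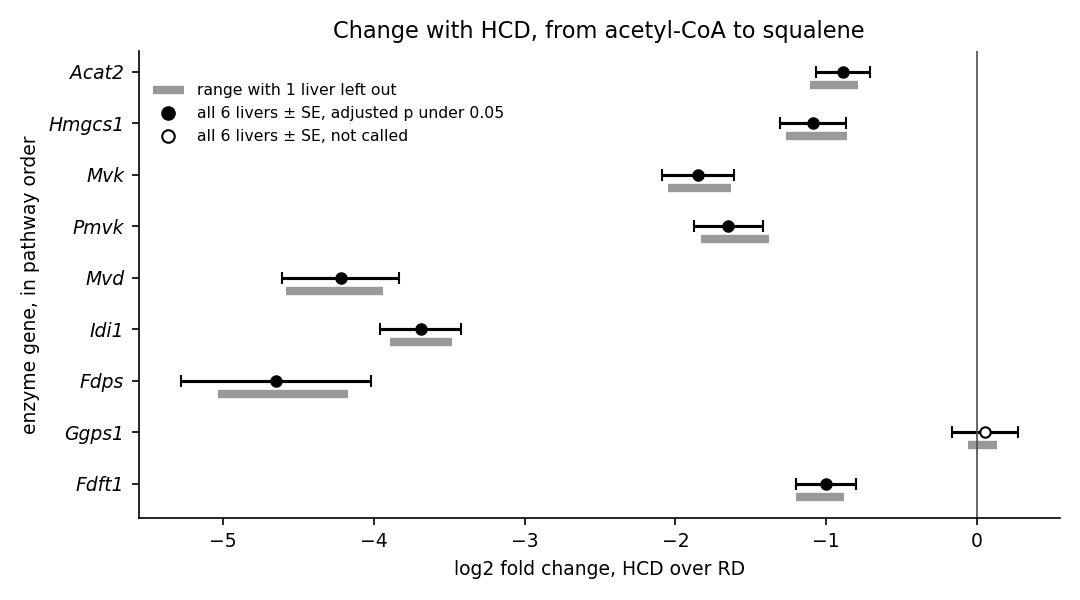
Log2 fold change of HCD over RD for each gene, in pathway order from top to bottom. Points are the edgeR estimates with SE, filled where the adjusted p was under 0.05, and grey bars span the estimates with each of the 6 livers left out in turn; the falls are deepest from Mvd to Fdps, and Ggps1 sits at 0.

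Levels of different genes were compared per gene length, in FPKM as deposited. With RD the order was Hmgcs1 (90.3 ± 25.4 FPKM, SD, n = 3), Fdft1 (49.0 ± 9.03), Acat2 (41.6 ± 5.7), Pmvk (37.3 ± 12.5), Idi1 (35.2 ± 10.2), Mvd (27.1 ± 8.47), Mvk (14.4 ± 4.22), Ggps1 (2.21 ± 0.301) and Fdps (1.93 ± 1.1). Neighbours in this order overlapped in their ranges except Hmgcs1 with Fdft1 and Mvk with Ggps1. With HCD the top of the order was Hmgcs1 (43.2 ± 6.71 FPKM), Fdft1 (24.8 ± 6.18), Acat2 (22.8 ± 5.54) and Pmvk (12.1 ± 1.23). Below them came Mvk (4.06 ± 0.387), Idi1 (2.77 ± 0.611), Ggps1 (2.33 ± 0.152), Mvd (1.44 ± 0.689) and Fdps (0.0767 ± 0.00862). In this order only Fdft1 with Acat2 and Idi1 with Ggps1 overlapped. Mvd and Idi1 thus moved from above Mvk to below it, and Mvd from above Ggps1 to below it.

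**Figure D4:**
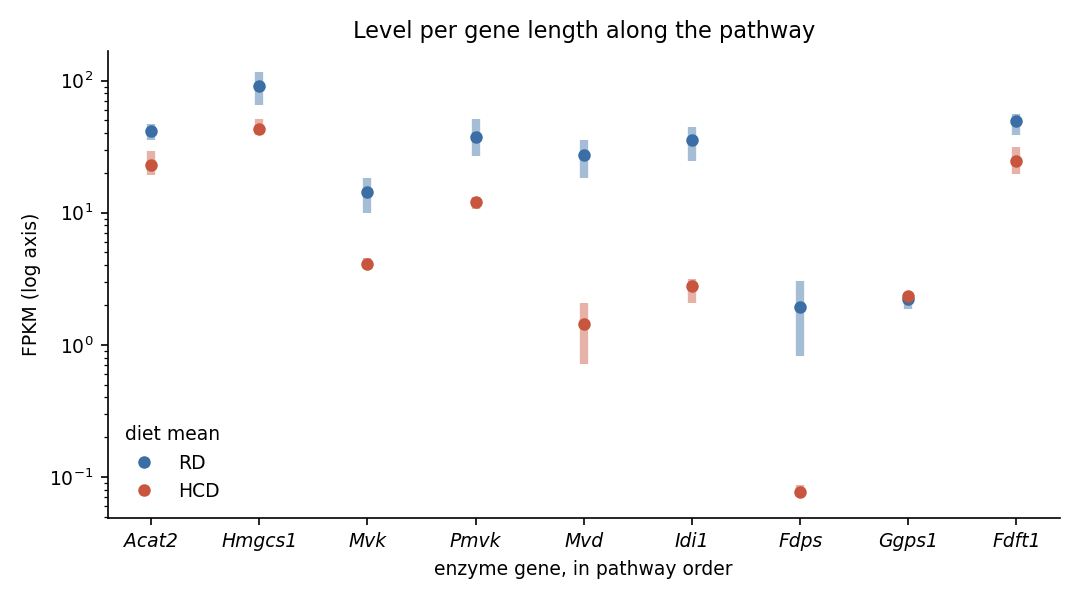
Mean FPKM of each gene by diet, in pathway order on a log axis, with bars from the lowest to the highest of the 3 livers. The first 4 genes and Fdft1 keep means above 4 FPKM with HCD, the means of Mvd and Idi1 drop under 3 FPKM, and Ggps1 overlaps between diets.

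Against all genes tested, Mvd dropped from percentile 85.3 of mean FPKM with RD to 25.6 with HCD, and Idi1 from 88.1 to 39.0. Hmgcs1 dropped less, from 94.6 to 89.2, and Fdft1 from 90.9 to 83.5. Fdps was at percentile 31.3 with RD and at 0.343 with HCD, and Ggps1 at 34.1 and 35.0.

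The 9 genes summed to 843, 546 and 707 CPM in the RD livers and to 313, 253 and 274 in the HCD livers. RD replicate 1 was the highest RD liver for 6 of the 9 genes (Hmgcs1, Mvk, Mvd, Idi1, Fdps and Fdft1), and RD replicate 2 the lowest for 6 (Acat2, Hmgcs1, Mvk, Pmvk, Idi1 and Fdft1). Mvd and Fdps were lowest in RD replicate 3. With HCD the order of the livers was mixed, replicate 1 being the highest for 4 genes (Hmgcs1, Pmvk, Ggps1 and Fdft1) and the lowest for 4 others (Acat2, Mvk, Idi1 and Fdps). The highest RD liver exceeded the lowest by 1.27-fold for Acat2 and by 1.42-fold for Fdft1, and by 1.75-fold to 1.98-fold for Hmgcs1, Mvk, Pmvk, Mvd and Idi1. With HCD the spread was 1.11-fold to 1.58-fold for all genes but Mvd, which spread 3.02-fold at its low counts. Hmgcs1 alone made up 43.5%, 38.3% and 39.0% of the summed CPM with RD and 49.5%, 48.6% and 44.7% with HCD, shares of reads that also depend on gene length.

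With 3 livers per diet, single livers decided several calls. Without RD replicate 1, 2 of the 9 genes were called lower, Mvd and Idi1, where 0.157% of all genes were, and the edgeR adjusted p was 0.157 for Acat2, 0.142 for Hmgcs1, 0.0533 for Mvk, 0.0537 for Pmvk, 0.0649 for Fdps and 0.157 for Fdft1. Without RD replicate 2, 4 genes were called (0.224% of all), and the p was 0.119 for Acat2, 0.0638 for Hmgcs1, 0.0563 for Fdps and 0.0871 for Fdft1. Leaving out RD replicate 3 left 5 called (0.547% of all), with 0.102 for Acat2, 0.0868 for Hmgcs1 and 0.092 for Fdft1. Leaving out HCD replicate 1, the liver with Xist counts, left 7 called (1.02% of all), with 0.0792 for Acat2. Leaving out HCD replicate 2 left 5 (1.02% of all), with 0.0906 for Acat2, 0.086 for Hmgcs1 and 0.0797 for Fdft1. In the fit without HCD replicate 3, 4 were called (0.362% of all), and the p was 0.117 for Hmgcs1, 0.0543 for Pmvk, 0.0543 for Fdps and 0.116 for Fdft1. Mvd and Idi1 were called in each of these 6 fits, with log2 fold changes from -4.58 to -3.94 and from -3.89 to -3.48. The sizes moved little, from -1.11 to -0.79 for Acat2, -1.27 to -0.86 for Hmgcs1 and -1.20 to -0.88 for Fdft1. DESeq2 called the same 8 genes lower, where it called 3.09% of all genes lower and 3.88% higher.

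At the branch point, Fdps and Ggps1 were compared within each liver, as log2 ratios of CPM plus 0.5. The ratio of Fdps to Ggps1 was 0.50, -0.44 and -1.50 with RD and -3.57, -3.47 and -3.35 with HCD. The diets did not overlap, and the mean moved from -0.48 ± 1.00 (SD, n = 3) to -3.46 ± 0.11. The difference of -2.98 gave an exact two-sided permutation p of 0.1, the smallest that 3 against 3 livers allow, and it was -4.55 without the pseudocount. With the copies added to Fdps the ratio was 2.46, 1.6 and 2.11 with RD and -1.61, -1.29 and -0.84 with HCD, a difference of -3.3, so the level and the RD spread of the ratio depend on the copies. For the enzymes that draw on farnesyl diphosphate, the log2 ratio of Fdft1 to Ggps1 was 4.63, 3.76 and 4.23 with RD and 3.42, 2.88 and 3.14 with HCD. Here too the diets did not overlap, with a difference of -1.06 and an exact permutation p of 0.1. Neither p was adjusted for testing both pairs.

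Upstream, 1 of the 3 genes that supply cytosolic acetyl-CoA was called lower and 0 higher, where 1.32% of all genes tested were called lower and 1.95% higher. DESeq2 called 2 of the 3, where it called 3.09% of all genes lower and 3.88% higher. Acss2, which makes acetyl-CoA from acetate, fell from 192 ± 59.2 CPM (SD, n = 3) to 69.0 ± 7.95, a log2 fold change of -1.48 (edgeR adjusted p = 0.0193), a call lost without RD replicate 1 (edgeR adjusted p = 0.0903) and without HCD replicate 3 (0.0615). Acly, which makes it from citrate, had a log2 fold change of -1.14 (edgeR adjusted p = 0.0676), and the citrate carrier Slc25a1 had -0.31 (edgeR adjusted p = 0.286). Of 5 related enzymes outside the pathway, 0 were called in either direction. That count is near the edgeR shares of all genes above and is not a result about these enzymes. The median log2 fold change of the 5 enzymes was 0.26. They included the mitochondrial thiolase Acat1, which went from 301 ± 39.4 to 369 ± 65.8 CPM (SD, n = 3), with overlapping diets and a fitted log2 fold change of 0.29 (edgeR adjusted p = 0.392).

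Downstream of squalene, 10 of 12 genes were called lower and 0 higher, where 1.32% of all genes tested were called lower and 1.95% higher. The median log2 fold change of the 12 genes was -1.79. The largest falls were in Sqle, the squalene epoxidase (112 ± 25.8 to 5.57 ± 1.60 CPM, log2 fold change -4.33, edgeR adjusted p = 0.000736), the lanosterol demethylase Cyp51 (195 ± 32.7 to 27.3 ± 3.47 CPM, -2.84, edgeR adjusted p = 0.000736) and the methyl sterol oxidase Msmo1 (152 ± 47.8 to 22.2 ± 2.92 CPM, -2.78, edgeR adjusted p = 0.00245). Lbr (-0.35) and Ebp (-0.38) did not pass. With 1 liver left out, 7 genes of this list were called without RD replicate 1, 8 without RD replicate 2 or HCD replicate 3, and 9 in the other fits. Across these fits 0.157% to 1.02% of all genes were called lower.

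The lists of genes that make or use other isoprenoid products are given by their counts. Of all genes tested, 1.32% were called lower and 1.95% higher. Counts of 0 or 1 in lists of this size are thus near the background and are not a result about these genes. Protein prenylation had 0 of 10 called in either direction, with log2 fold changes from -0.47 to 0.31 and a median of -0.20, and 1 lower and 1 higher at an unadjusted edgeR p of 0.05 or less, where 9.81% of all genes tested were lower and 11.1% higher. The list of genes that make or use dolichol had 0 of 8 called, a median of -0.12, and 0 lower and 2 of 8 higher at that unadjusted p, against the same shares. DESeq2 called 0 genes of either list. Of 11 ubiquinone genes 0 were called lower and 1 higher, with a median of 0.10. This gene was Coq8a, an atypical kinase of ubiquinone synthesis, which rose from 361 ± 64.9 CPM (SD, n = 3) to 754 ± 137, a log2 fold change of 1.06 (edgeR adjusted p = 0.0319), and with a liver left out it was called without HCD replicate 2 (edgeR adjusted p = 0.0329) and not in the other 5 fits (0.0512 to 0.156). Other users of isoprenoids had 0 of 4 called, a median of 0.25, and 0 called by DESeq2.

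Of the 7 genes of the SREBP system, 2 were called lower and 1 higher, where 1.32% of all genes tested were called lower and 1.95% higher. DESeq2 called 5 of the 7 in either direction, where it called 3.09% of all genes lower and 3.88% higher. Srebf2, which encodes SREBP2, fell from 83.0 ± 17 CPM (SD, n = 3) to 41.0 ± 6.71, a log2 fold change of -1.02 (edgeR adjusted p = 0.0296). Insig1, whose protein holds SREBP proteins in the endoplasmic reticulum, fell from 322 ± 82.1 to 141 ± 27.8 CPM (-1.20, edgeR adjusted p = 0.0307). Srebf1, the related gene that mainly serves fatty acid synthesis in liver, rose from 227 ± 45.4 to 1001 ± 168 CPM (2.14, edgeR adjusted p = 0.00407). With a liver left out, Srebf1 was called in all 6 fits, Srebf2 without HCD replicate 1 (edgeR adjusted p = 0.0409) and not in the other 5 (0.0525 to 0.128), and Insig1 in none (0.0515 to 0.122).

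**Figure D5:**
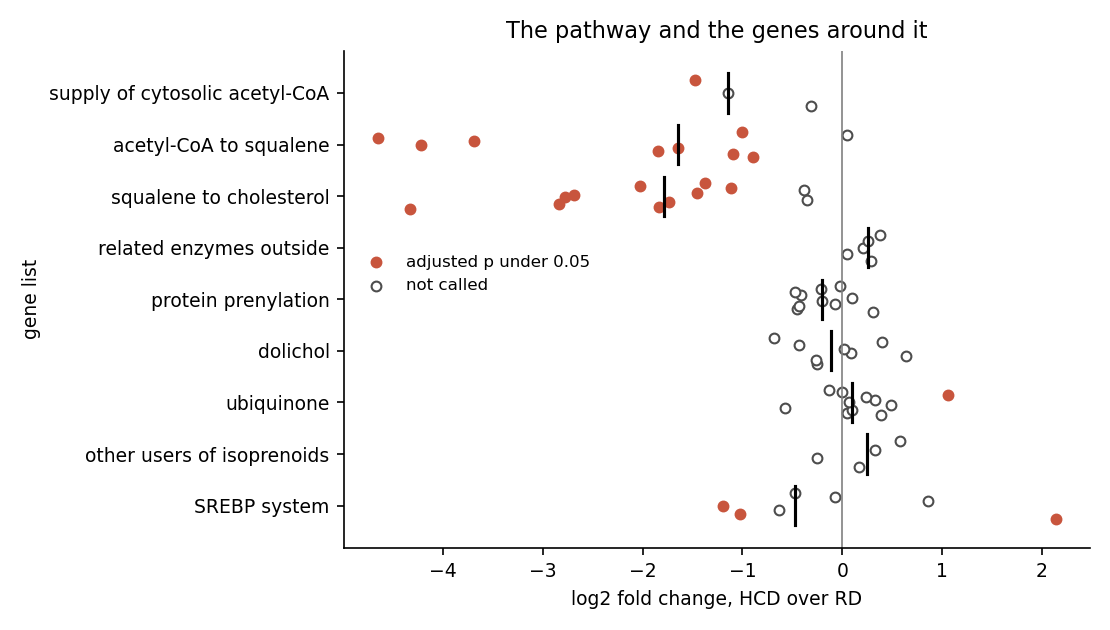
Log2 fold change of HCD over RD for each tested gene of the pathway and of the lists around it, with filled points at an edgeR adjusted p under 0.05, open points otherwise and a black line at each list's median. The pathway genes but Ggps1 (0.05) and the squalene to cholesterol genes lie to the left of 0, with list medians of -1.65 and -1.79. Prenylation, dolichol and ubiquinone genes lie on both sides of 0, and the 5 related enzymes lie between 0.05 and 0.38.

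Genes outside the pathway list, 7 of them, are named for the likeness of their pattern to the mean log2 deviation of the 8 called genes, by Pearson correlation over the 6 livers among 9109 genes. That mean was 1.36, 0.81 and 0.96 in the RD livers and -1.04, -1.01 and -1.08 in the HCD livers, so the correlations rest on the gap between diets. The sterol genes Msmo1 (r = 0.996), Cyp51 (0.994) and Sqle (0.991) were among them, as was Stard4, a sterol carrier (0.994), which fell from 121 ± 12.7 to 36.4 ± 4.40 CPM. The others were the small heat shock protein gene Hspb8 (0.998, log2 fold change -0.97, edgeR adjusted p = 0.013), Abhd18 (0.996, -0.72, edgeR adjusted p = 0.0365) and Tmem258 (0.992, -0.54, edgeR adjusted p = 0.0712, not called). The correlations are a description of these 6 libraries, which all genes share.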

How the data were processed

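The authors deposited read counts per gene, whole and not normalized, and FPKM, per gene length and library total. The submitters' notes name GRCm39, STAR, HTSeq, DESeq2 and edgeR, without roles or versions; no source used here states whether counting used strand. The authors' own fold changes and p-values stand beside the FPKM and were not used. Counts were analysed with edgeR 4.0.16 in R 4.3.3: filterByExpr by diet kept 13105 of 20673 genes, with TMM scaling, a quasi-likelihood test of diet without covariates (glmQLFit, glmQLFTest), two-sided, and Benjamini-Hochberg adjustment over all genes tested. All 6 libraries were used, and depth limits mainly Fdps. Permutation tests over livers were exact and two-sided, with a smallest p of 0.1. Where nothing says that extractions were separate, p-values measure the spread between these samples. Near-copies were found by aligning GENCODE M21 transcripts (GRCm38) with minimap2 2.31, at 90% identity over at least 200 bases. Figures were drawn with matplotlib 3.10.9 in Python 3.11.15.

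All 9 genes are named. Each surrounding list is given by its counts, with up to 3 called genes per direction, and the 8 genes of most similar pattern at a mean of at least 5 CPM were picked by rule, of which 1 is not reported here. Members and lists were chosen with earlier results of these data known. Scripts were tested on simulated counts. Alternatives were DESeq2 1.42.0, RLE factors, library sizes alone, no filter, limma-trend (limma 3.58.1) on log2 of FPKM plus 1 or 0.1, a minimum mean count of 50, removal of a gene-length trend, a replicate block, other call thresholds, each liver left out, and copies added to their gene.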

Additional observations from a re-analysis of the deposited data

How the results depend on the processing

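The number of the 9 genes called lower was 8, and it was 7 or 8 under RLE factors, library sizes alone, DESeq2, no filter, a mean of at least 50 counts, removal of the length trend, added copies, an unadjusted p, and a log2 fold change of at least 1. Of 13105 genes tested, the main fit called 173 lower, RLE factors 173, library sizes alone 161 and removal of the length trend 113. An unadjusted p of 0.05 or less took in 1286 (9.81%), and a log2 fold change of at least 1 took in 102. DESeq2 called 3.09% of all genes lower. Without the filter 285 of 20673 were lower, with the mean count filter 165 of 10326, and with added copies 170 of 13100. Of the 9 genes, 5 were called lower with limma-trend on FPKM plus 1 and 5 on FPKM plus 0.1, both without Acat2, Hmgcs1 and Fdft1. Those fits called 130 and 115 of the 13105 genes tested lower, in that order. At an adjusted p under 0.01, 2 of the 9 genes were called lower, where 22 of the 13105 were. The cause was not tested. With 1 liver left out the number called lower ranged from 2 to 7, where 0.157% to 1.02% of all genes were called lower. The median log2 fold change was -1.37 with limma-trend on FPKM plus 1, a scale that compresses low genes such as Fdps (-1.37), and ranged from -1.83 to -1.38 with 1 liver left out. Ggps1 turned to -0.00 with library sizes alone and to -0.06 without RD replicate 1, and ranged from -0.06 to 0.13 with 1 liver left out. With a replicate block 7 of the 9 genes were called lower, Acat2 being lost, where 65 of the 13105 genes tested were. The numbers do not pair the livers by the labels, and same-numbered livers correlated at -0.08, 0.12 and -0.03 in their deviations from the diet means. Mvd and Idi1 were called in every one of the 16 alternative fits. Depth limits Fdps, with 10 counts over the HCD livers.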
